A study of Mus musculus with 3 samples.

Results

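The nuclear genes for the protein subunits of the mitochondrial respiratory chain were examined in mouse embryos with and without maternal Dnmt3l. Members were chosen by symbol alone: all probe sets of the array annotated to a single gene whose symbol begins with Ndufa, Ndufb, Ndufc, Ndufs or Ndufv and a number (complex I), is Sdha, Sdhb, Sdhc or Sdhd (complex II), begins with Uqcr (complex III), begins with Cox4 to Cox8 and a letter (complex IV), or begins with Atp5 (complex V). The rule used no measured value. It gave 164 of 45101 probe sets, which stand for 81 of the 18193 genes measured. Complex I had 35 genes, complex II 4, complex III 8, complex IV 17 and complex V 17. A further 9 probe sets were annotated to several genes of which at least 1 is a subunit, and they were not used. The subunits encoded in mitochondrial DNA were not analysed here.

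Signals were measured on 3 single-colour Affymetrix arrays, each hybridised with RNA from whole embryos of both sexes at 8.5 days post coitum, pooled from litter mates. The normal array came from 6 C57Bl/6J embryos. Mutant arrays 1 and 2 came from 8 and 6 embryos that were Dnmt3l-/+ on the C57Bl/6J background, from Dnmt3l-/- mothers mated with wildtype males. Dnmt3l helps the enzymes that add new DNA methylation, and without it the oocyte does not set maternal methylation imprints; the comparison asks which transcripts differ in embryos from such oocytes. The mutant embryos keep a wildtype paternal Dnmt3l allele, and the labels do not give the genotype of the normal embryos' mothers.

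The respiratory chain sits in the inner mitochondrial membrane. Complexes I and II pass electrons from NADH and succinate to ubiquinone, complex III passes them to cytochrome c, and complex IV passes them to oxygen; complexes I, III and IV pump protons, and complex V, the ATP synthase, uses the gradient to make ATP. Embryos of this age are in early organogenesis and take much of their energy from glycolysis, while the use of oxidative phosphorylation grows as the heart and circulation form. Many subunit promoters are known to bind the transcription factors NRF1, the ETS family factor GABP and YY1.

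Each array had been scaled to a trimmed mean signal of 500 before deposit, and the median signal was 144 in the normal pool, 130 in mutant pool 1 and 140 in mutant pool 2. The 3' to 5' signal ratio, a measure of RNA integrity, was 1.63, 1.24 and 1.43 for Actb and 0.930, 0.859 and 1.10 for Gapdh, so the normal array had the highest ratio for Actb but not for Gapdh. The Dnmt3l probe set had signals of 12.2 (normal), 183 (mutant 1) and 14.3 (mutant 2), dim on the normal array and mutant array 2 and above the median on mutant array 1; since a paternal allele remains and the probes were not placed against the deletion, it does not check the genotype. A log2 ratio below is log2(signal + 31.9) of a mutant array minus that of the normal array, where 31.9 keeps dim signals from giving extreme ratios; it understates the change of dim genes. Both ratios of a gene share the 1 normal array. A gene is represented by its brightest probe set. Significance was tested with limma, two-sided, on the 27022 probe sets in the upper part of the signal range, with Benjamini-Hochberg adjusted p-values and a threshold of 0.05. The normal group has no replicate, so the fit borrowed the spread of the mutant pools for it, and no value below can show whether this pool was typical of normal embryos. In whole embryos, fewer cells of a type and less RNA per cell cannot be told apart.

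Promoter sequences are shown first because the mutation concerns DNA methylation and because shared promoter motifs are a known feature of these genes. Promoter methylation was not measured. Of the 81 subunit genes, 66 matched a window of 300 bases (250 before and 50 after the start) in the RefSeq promoters of GRCm38.p6, as did 14453 genes on the array. The NRF1 core GCGCATGCG, read on both strands, was in the windows of 7 subunit genes (10.6%) and 3.09% of all genes. The ETS core CCGGAAG was in 17 (25.8%, against 15.0%), the YY1 core AAGATGGC in 9 (13.6%, against 4.07%) and the letters TATAAA in 8 (12.1%, against 11.5%). These shares are descriptions with no test, a gene with several windows had more chances of a match, and a match is not a bound site. Atp5g2 and Atp5k, of the membrane part of ATP synthase, carry the NRF1 core on both strands as a palindrome, shown in capitals in the 150 bases before the start at chr15:102671048-102671197 (minus strand) and chr5:108434400-108434549 (minus strand):
Atp5g2: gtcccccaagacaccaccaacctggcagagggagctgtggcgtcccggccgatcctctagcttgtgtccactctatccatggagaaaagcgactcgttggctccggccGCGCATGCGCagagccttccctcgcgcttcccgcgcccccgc
Atp5k: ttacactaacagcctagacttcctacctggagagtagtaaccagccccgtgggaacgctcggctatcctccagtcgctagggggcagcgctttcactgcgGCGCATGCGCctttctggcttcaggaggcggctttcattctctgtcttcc

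The gene with the lowest p-value among the members, Sdhd, carries an ETS core on the strand opposite to the gene. That core is also in windows of Atp5md and Atp5l, which read higher, and of Ndufb7 and Atp5h, which read lower. It is not in those of Sdha and Ndufb2, which read higher, or of Cox6b2, which read lower. A link between the core and the ratios was not tested. The core of Sdhd is shown in capitals in the 150 bases before its start at chr9:50603850-50603999 (minus strand):
Sdhd: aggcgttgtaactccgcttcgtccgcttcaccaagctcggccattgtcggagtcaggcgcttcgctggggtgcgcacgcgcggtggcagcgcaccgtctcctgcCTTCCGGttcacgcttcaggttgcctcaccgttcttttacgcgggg

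CpG dinucleotides were counted in the richest window of each gene, which favours genes with several windows. By this count the subunit genes held 2 to 43 CpG, with a median of 19 against 18 over all genes. Genes with 0 to 4 CpG made up 1.52% of the subunit genes with a window and 16.6% of all genes with one. Counts were also low for some widely expressed subunits (8 for Ndufc2, 11 for Ndufa3) and high for others (39 for Ndufv2). As examples from isoform families, Cox8a, the widely expressed form, has 19 CpG in its window, and Cox8b, the heart and muscle form, has 2; Cox6b1, the widely expressed form, has 17, and the testis form Cox6b2 has 10. The 150 bases before the start of each follow with CpG in capitals, at chr19:7217617-7217766, chr7:140900447-140900596, chr7:30626115-30626264 and chr7:4753095-4753244, all on the minus strand of GRCm38.p6:
Cox8a: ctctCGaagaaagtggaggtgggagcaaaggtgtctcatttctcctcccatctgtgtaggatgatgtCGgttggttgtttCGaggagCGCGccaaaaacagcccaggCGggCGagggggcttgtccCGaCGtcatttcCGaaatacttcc
Cox8b: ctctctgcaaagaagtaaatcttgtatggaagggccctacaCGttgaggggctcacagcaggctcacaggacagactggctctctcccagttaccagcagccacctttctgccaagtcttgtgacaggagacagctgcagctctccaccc
Cox6b1: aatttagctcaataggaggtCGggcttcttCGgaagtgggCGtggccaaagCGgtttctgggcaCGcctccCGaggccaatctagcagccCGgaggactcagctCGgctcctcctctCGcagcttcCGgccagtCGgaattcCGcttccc
Cox6b2: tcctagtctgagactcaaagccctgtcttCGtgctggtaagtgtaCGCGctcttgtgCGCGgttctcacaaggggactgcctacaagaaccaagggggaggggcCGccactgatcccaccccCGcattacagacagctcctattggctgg

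**Figure D1:**
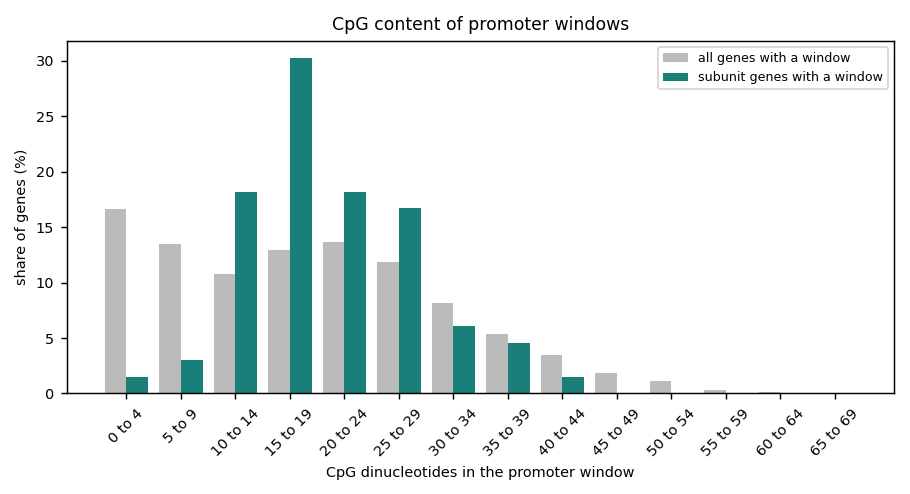
Share of genes (percent, y axis) by the number of CpG dinucleotides in the promoter window (x axis), for the 66 subunit genes with a window (green) and the 14453 genes on the array with one (grey). A gene with several windows is counted by the richest. The bin of 0 to 4 CpG holds 1.52% of the subunit genes and 16.6% of all genes.

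Across the 81 genes the subunits read close to the normal array in both mutant arrays. The median log2 ratio was 0.0155, with 0.05 on mutant array 1 and -0.05 on mutant array 2, against -0.010 over all 18193 genes. The quartiles were -0.18 and 0.12, and the extremes were Cox6b2 at -0.95 and Atp5md at 0.82. No subunit probe set passed limma (0 of the 148 tested, lowest adjusted p = 0.193, for Sdhd), where 0.548% of all tested probe sets were called higher and 0.0296% lower in mutants. At an unadjusted p under 0.05, 6 subunit probe sets read higher and 5 lower, and the shares over all tested probe sets were 6.70% and 6.86%. The 6 that read higher belong to Sdhd, Sdha, Atp5md, Atp5l, Atp5a1 and Ndufb2, and the 5 that read lower to Ndufb7, Ndufa3, Ndufs8, Cox6b2 and Atp5h.

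Of the 81 genes, 24 read higher than normal on both mutant arrays, 25 lower on both and 32 in different directions on the 2 arrays; over all genes 36.0% read higher on both and 37.4% lower on both. This balance moves with the scaling of the arrays: 35 higher and 18 lower after median centring, 32 and 25 after quantile normalization, and 33 and 23 after cyclic loess. Differences of at least 1.5-fold on both arrays were seen for Sdhd and Atp5md (higher) and Cox6b2 (lower), 2 and 1 of 81 genes, where 7.20% of all genes passed that size upward and 4.34% downward. Within 1.2-fold of normal on both arrays lay 42 of the 81 genes (51.9%), against 29.1% of all genes. Bright genes differ less on these arrays: among the 1533 genes at or above the lower quartile of the subunits' level, 45.8% lay within 1.2-fold. In that bright set the median log2 ratio was -0.06, with 30.8% higher on both arrays and 46.6% lower on both. The standard errors of the log2 ratio ran from 0.13 to 0.36 with a median of 0.18. For 71 of the 78 genes tested, by the brightest probe set, the 95% interval of the fit lay within a 2-fold difference in either direction. It did not for Ndufa4l2, Ndufa5, Sdhd, Cox6b2, Cox7c, Atp5l and Atp5md. The spread between normal pools was not measured, so these intervals do not exclude a 2-fold difference between normal and mutant embryos. The 3 genes not tested, Ndufb4, Cox7b2 and Cox8b, were too dim.

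**Figure D2:**
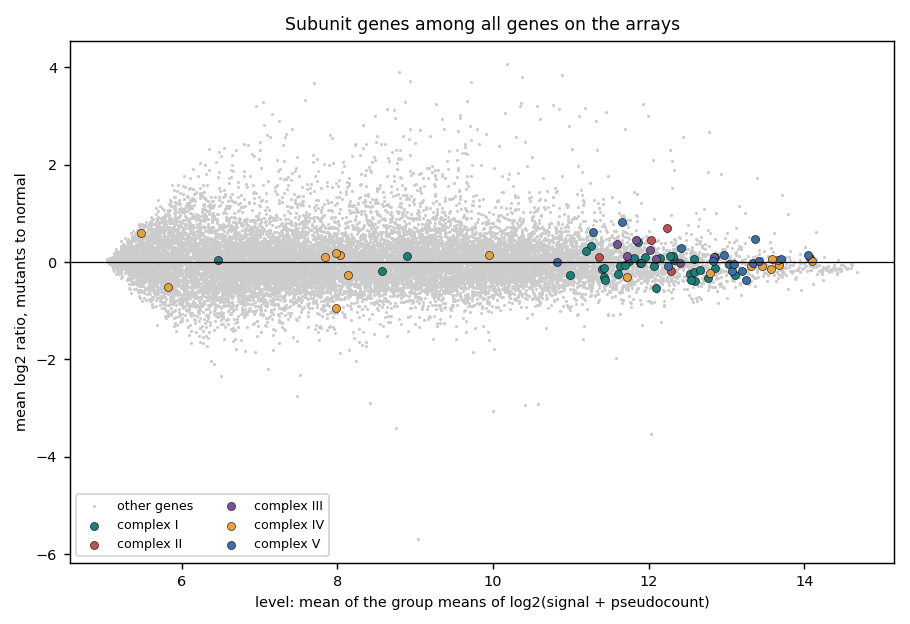
Mean log2 ratio of the mutant arrays to the normal array (y axis) against level on the log2(signal + pseudocount) scale, averaged within and then over the groups (x axis), for all 18193 genes (grey) and the 81 subunit genes coloured by complex. Most subunit genes lie at the bright end and near 0; the largest ratios are 0.82 (Atp5md) and -0.95 (Cox6b2).

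Complex I, the NADH dehydrogenase, had a median log2 ratio of -0.08 (-0.02 and -0.09 on mutant arrays 1 and 2), with 6 genes higher on both arrays, 14 lower on both and 15 mixed. After median centring its median was -0.0017. Its catalytic arm oxidises NADH and carries the flavin and the iron-sulfur clusters. Subunits that hold these centres are among the Ndufv and Ndufs genes, which also include accessory subunits such as Ndufs4. Ndufv1, the NADH-binding flavoprotein, read 2834 in the normal pool, then 2328 and 2913 in the mutant pools. Its iron-sulfur partner Ndufv2 read 6807, then 6274 and 5832. Ndufs1, the largest subunit with several clusters, read 2137, then 2460 and 2561. For Ndufv1 the normal value lies between the mutant values, for Ndufv2 it is the highest and for Ndufs1 the lowest. Their mean log2 ratios were -0.12, -0.17 and 0.23, with standard errors of 0.22, 0.16 and 0.19, and none passed the test (adjusted p of 0.66 or more). The other Ndufv1 probe sets, nearly as bright, read lower on both mutant arrays. They gave 2807, 2081 and 2303 (log2 ratio -0.35) and 2625, 2006 and 2378 (log2 ratio -0.26). Those of Ndufv2 were also lower on both, at -0.32 and -0.36, and none of these passed the test.

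Ndufs3, a core subunit at the foot of that arm, had signals of 3386 (normal), 3346 and 3504. Ndufs7, which holds the last cluster before ubiquinone, had 3447, 3901 and 3428, and Ndufs8, with a pair of clusters, had 3343, 3292 and 3156. For Ndufs3 and Ndufs7 the normal value lies between the mutant values and for Ndufs8 just above them, with log2 ratios of 0.016, 0.08 and -0.05. Ndufs8 is covered by 6 probe sets, and the dimmest gave 527, 328 and 294 (log2 ratio -0.71, adjusted p = 0.358) where the 3 brightest lay within 0.06 of 0. The 9 Ndufs and Ndufv genes together had a median of -0.05.

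The accessory subunits of complex I surround the core and are needed for its assembly and stability. The 13 Ndufa genes had a median of -0.08, the 11 Ndufb genes 0.03, and the 2 Ndufc genes -0.12 and -0.08. The Ndufb median is the value of Ndufb4, which was too dim to be tested (55.7, 40.5 and 79.3). The genes next to it in rank were Ndufb3 at -0.14 and Ndufb9 at 0.07, so the sign of that median is not settled. Ndufb7, an accessory subunit of the membrane arm, read 5216 in the normal pool, then 3351 and 3900 in the mutant pools, the lowest ratio of the complex (log2 ratio -0.53, standard error 0.19, adjusted p = 0.326). Its second probe set read in the same direction, with 2600, 1920 and 2119. Ndufb2, also of the membrane arm, was at the other end with 3194, then 4427 and 4108 (log2 ratio 0.41, standard error 0.18, adjusted p = 0.391). A second bright Ndufb2 probe set gave 1758, 2711 and 2456, and a dim one went the opposite way with 231, 169 and 147. In both genes the normal value lies outside the mutant values, and neither difference passed the test.

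Ndufa1, the brightest gene of complex I and X-linked, read 9657, 8588 and 7484 (log2 ratio -0.27, standard error 0.16). The other X-linked member found, Ndufb11, read 6557, 5922 and 5410 (log2 ratio -0.21, standard error 0.16). Both were highest on the normal array, and neither passed the test (adjusted p of 0.542 and 0.633). Ndufa13, Ndufb8 and Ndufs5 were also lower on both arrays, at -0.39, -0.37 and -0.37, with adjusted p of 0.425, 0.401 and 0.478. Ndufa4 was first assigned to complex I and is now counted with complex IV; it read 7099, 6961 and 8310. Its relative Ndufa4l2, known as a hypoxia-induced gene, read 371, 410 and 255. Neither of the pair read in the same direction on both mutant arrays, and Ndufa4l2 had the widest standard error of the 78 genes tested (0.36).

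**Figure D3:**
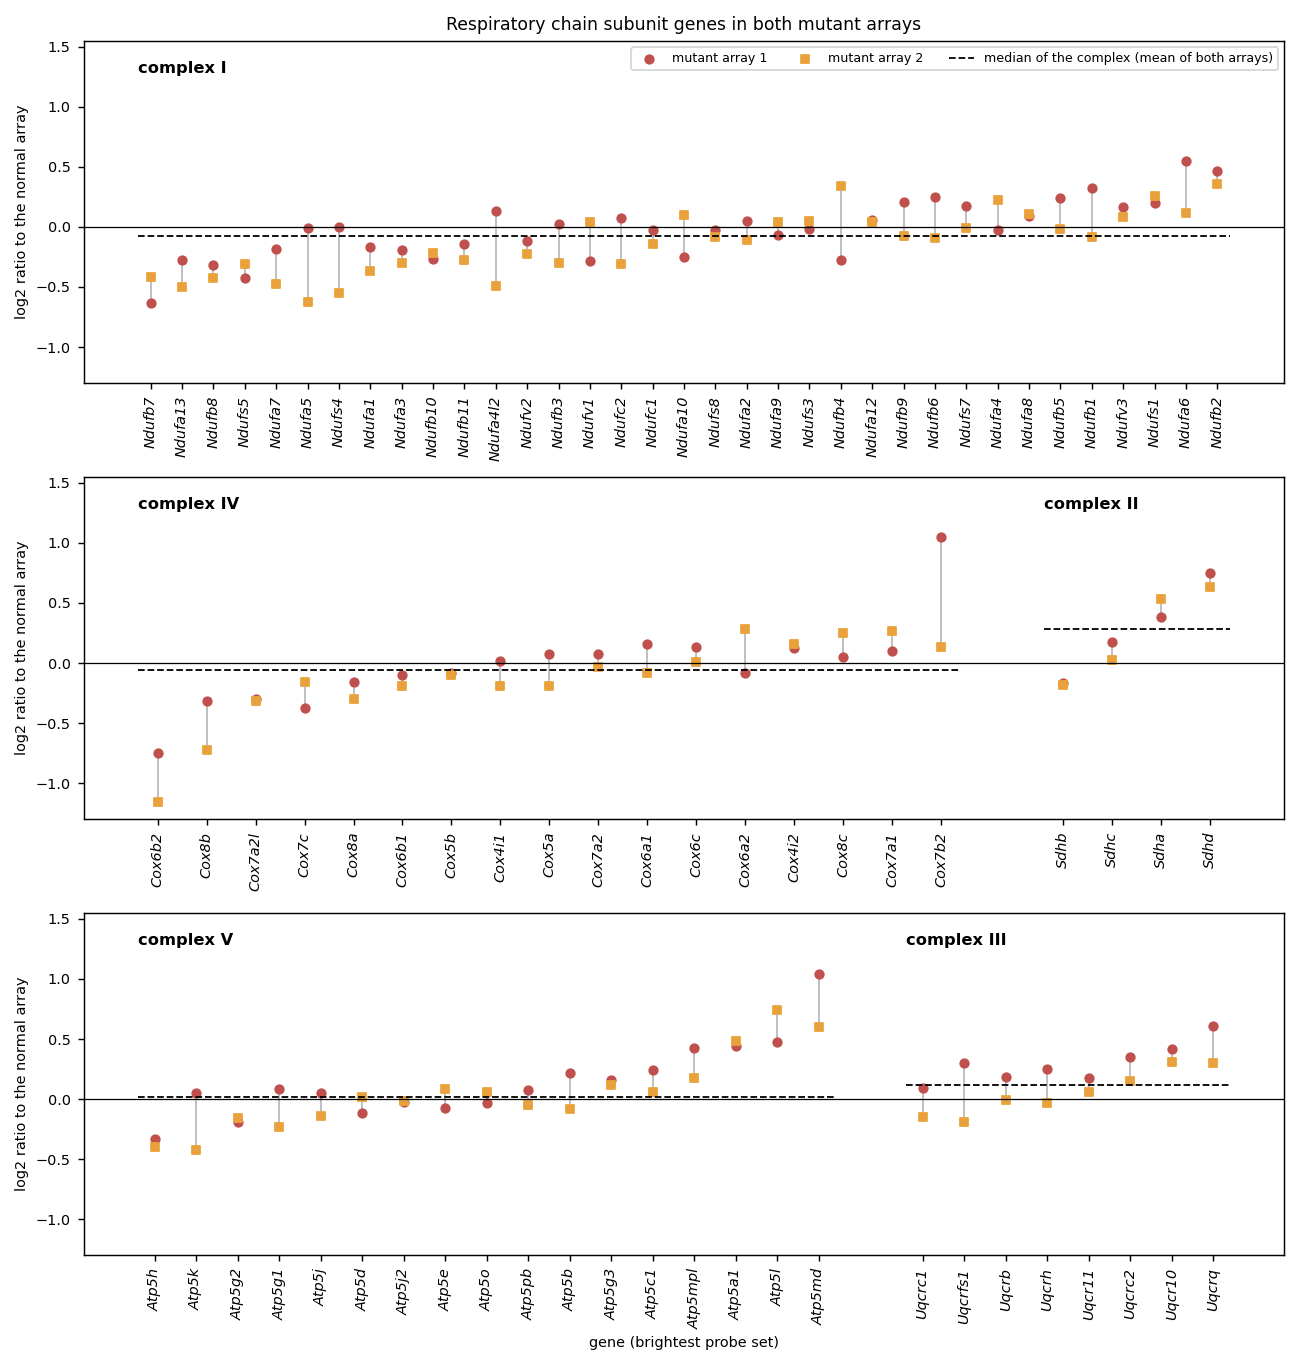
Log2 ratio to the normal array (y axis) of the 81 subunit genes, ordered within each complex by the mean ratio (x axis), on mutant array 1 (circles) and mutant array 2 (squares), with the median of each complex as a dashed line. Complexes I, IV and V centre near 0, Sdhd and Sdha stand above in complex II, and Cox6b2 lies lowest of all genes.

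Complex II, succinate dehydrogenase, oxidises succinate in the tricarboxylic acid cycle and has no subunit encoded in mitochondria. Its 4 genes had a median log2 ratio of 0.28 on the mean of the arrays and on each of them, with 3 higher on both arrays and 1 lower on both. Sdhd, a membrane anchor subunit, read 3782 in the normal pool, then 6371 and 5875 in the mutant pools (log2 ratio 0.69, standard error 0.17, adjusted p = 0.193). Sdha, the flavoprotein that binds succinate, read 3552, then 4631 and 5167 (log2 ratio 0.46, standard error 0.18, adjusted p = 0.358). For both genes the mutant values lie above the normal value by more than they differ from each other. Sdhb, the iron-sulfur subunit, had 5297, 4707 and 4652 (log2 ratio -0.18, adjusted p = 0.693), with the normal array highest. Sdhc, the other membrane anchor, had 2516, 2851 and 2564 (log2 ratio 0.10, adjusted p = 0.860).

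The higher readings in complex II depend on the probe set. The second Sdhd probe set read 1154, 1041 and 661, lower on both mutant arrays (log2 ratio -0.46, adjusted p = 0.598). Of the other Sdha probe sets, one gave 2683, 3029 and 2431 (log2 ratio 0.016), another 307, 148 and 288 (log2 ratio -0.50), and the last was near background. With the mean of each gene's probe sets in place of the brightest, the median of the complex was 0.07. The annotation here does not say which transcripts or regions of the gene each probe set reads.

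**Figure D4:**
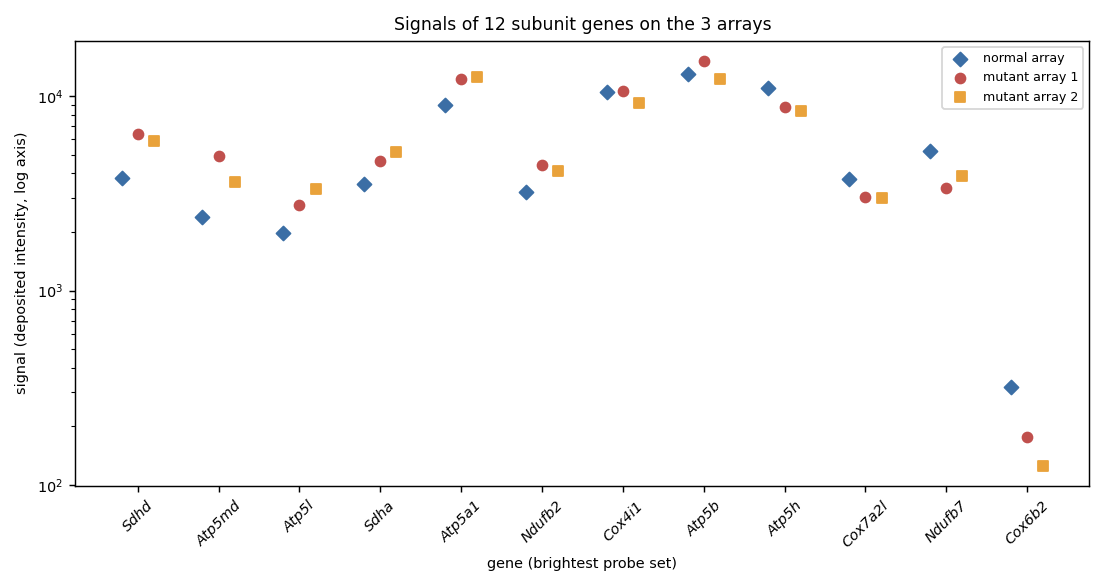
Deposited signal (log axis) of 12 subunit genes by their brightest probe set (x axis) on the normal array (diamonds), mutant array 1 (circles) and mutant array 2 (squares), 1 point per array. The mutant points lie above the normal point for Sdhd, Atp5md, Atp5l, Sdha, Atp5a1 and Ndufb2, below it for Atp5h, Cox7a2l, Ndufb7 and Cox6b2, and around it for Cox4i1 and Atp5b.

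Complex III, the cytochrome bc1 complex, had a median log2 ratio of 0.11, made of 0.28 on mutant array 1 and 0.03 on mutant array 2. Of its 8 genes, 4 read higher on both arrays and 4 were mixed. By their brightest probe sets, all 8 read lower on mutant array 2 than on mutant array 1. Further probe sets of Uqcrb, Uqcrc2 and Uqcrh gave the same order. The other Uqcr10 probe sets and a dim one of Uqcrq gave the reverse. Uqcrfs1, the Rieske iron-sulfur protein, read 4252 in the normal pool, then 5232 and 3721 in the mutant pools, with the normal value between them. The core proteins did likewise or read higher: Uqcrc1 had 5429, 5789 and 4901, and Uqcrc2 had 3763, 4803 and 4185. Uqcrb, the brightest gene of the complex, had 16664, 18919 and 16586.

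The small subunits Uqcrq, Uqcr10 and Uqcr11, which support the assembled complex, all read higher on both mutant arrays. Uqcrq had 3101 (normal), 4736 and 3831 (log2 ratio 0.45, standard error 0.20, adjusted p = 0.418). Uqcr10 had 2690, 3604 and 3337 (log2 ratio 0.36, standard error 0.18, adjusted p = 0.468). The normal array was lowest for both, and neither passed the test. The other Uqcr10 probe sets also read higher on both mutant arrays (log2 ratios 0.35 and 0.60), as did a dim one of Uqcrq (0.45). Again some probe sets differed: a second Uqcrc2 probe set nearly as bright gave 3448, 3052 and 2750 (log2 ratio -0.25, against 0.25 for the brightest). A second Uqcrb probe set gave 7365, 6920 and 5109 (log2 ratio -0.31, against 0.09), and another dim Uqcrq probe set gave 238, 185 and 211.

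Complex IV, cytochrome c oxidase, had a median log2 ratio of -0.06 (0.013 and -0.10 on the mutant arrays), with 5 genes higher on both, 7 lower on both and 5 mixed. That median turned to 0.014 after median centring and 0.0038 after quantile normalization. Cox4i1 and Cox5a, which surround the catalytic core and bind regulators of its activity, read 10494, 10592 and 9201, and 13360, 14038 and 11687. Cox5b, the zinc-binding subunit, read 11607, 10964 and 10857. The mutant values lie on either side of the normal one for Cox4i1 and Cox5a and below it for Cox5b, with log2 ratios of -0.09, -0.06 and -0.09.

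Several subunits of complex IV exist as a widely expressed form and a form of heart and skeletal muscle, lung or testis. Cox6a1 (widely expressed) read 12775 in the normal pool, then 14230 and 12047 in the mutant pools, while Cox6a2 (heart and muscle) read 189, 177 and 237. Cox7a2 (widely expressed) read 17340, 18264 and 16909, and Cox7a1 (heart and muscle) read 204, 222 and 253. Cox8a (widely expressed) read 7661, 6851 and 6221, and Cox8b (heart and muscle) read 35.6, 22.3 and 8.98. Cox8b was too dim to be tested, and the adjusted p was 0.595 for Cox8a and higher for the other 4 genes. Cox4i2, a lung form linked to oxygen supply, read 217, 240 and 245.

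The testis forms did not read alike. Cox6b2 read 319 in the normal pool, then 177 and 126 in the mutant pools (log2 ratio -0.95, standard error 0.34, adjusted p = 0.324). This is the lowest ratio of the 81 genes, from 1 probe set of low signal. Its widely expressed partner Cox6b1 read 12768, 11936 and 11197 (log2 ratio -0.14). Cox8c read 903, 936 and 1080 (log2 ratio 0.15), and Cox7b2 was near background with 4.42, 43.3 and 7.85. Cox7a2l, grouped here with the Cox7a family, read 3741, 3028 and 2996, with close mutant values below the normal one (log2 ratio -0.31, standard error 0.18, adjusted p = 0.519). Cox7c was read only by dim probe sets, the brightest with 276, 206 and 244.

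Complex V, the ATP synthase, had a median log2 ratio of 0.0155 (0.08 and 0.019 on the mutant arrays), with 6 genes higher on both, 3 lower on both and 8 mixed. In the catalytic head, Atp5a1 (alpha) read 8975 in the normal pool, then 12237 and 12569 in the mutant pools (log2 ratio 0.47, standard error 0.14, adjusted p = 0.252). Atp5b (beta) read 13024, 15162 and 12301, and Atp5c1 (gamma) read 7591, 8987 and 7931. Only for Atp5a1, of these 3, did the mutant values stand apart from the normal one by more than they differ from each other. A second bright Atp5a1 probe set did not: it gave 6407, 6216 and 6536 (log2 ratio -0.0075).

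The proton-conducting ring is made of one protein encoded by 3 genes that differ in their targeting peptides. Atp5g1 had 4950 (normal), 5249 and 4206; Atp5g2 had 9110, 7959 and 8155; and Atp5g3, the brightest gene of the complex, had 16149, 18054 and 17491. The 3 genes therefore read mixed, lower and higher, at -0.07, -0.18 and 0.14, and none passed the test (adjusted p of 0.659 or more). Atp5h, of the peripheral stalk, read 11032, 8756 and 8363 (log2 ratio -0.37, standard error 0.14, adjusted p = 0.366), and its other probe set read in the same direction with 8464, 7539 and 6849.

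Small subunits at the membrane gave the 2 highest ratios of the complex. Atp5md, which takes part in joining ATP synthases into dimers and rows, read 2390 in the normal pool, then 4946 and 3632 in the mutant pools (log2 ratio 0.82, standard error 0.24, adjusted p = 0.246). Atp5l (subunit g, also at the dimer interface) read 1980, 2770 and 3337 (log2 ratio 0.61, standard error 0.21, adjusted p = 0.311). Both normal values were below both mutant values, and each gene was read by 1 probe set. Atp5k (subunit e), which assembles with subunit g, read 9976, 10324 and 7416, so the 2 partners did not read alike.

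Agreement between probe sets limits the single genes. Of the 44 subunit genes with at least 2 tested probe sets, the log2 ratios within a gene spanned a median of 0.21. In 8 of them, Ndufa3, Ndufa5, Ndufb2, Sdha, Sdhd, Uqcrc2, Uqcrq and Atp5c1, one probe set read higher on both mutant arrays and another lower on both. The pair for Atp5c1 was 0.15 and -0.18, that for Ndufa3 0.09 and -0.49, and that for Ndufa5 0.13 and -0.32. For 33 genes a single probe set was measured, so no such comparison was possible. Taken over probe sets instead of genes, the median log2 ratio was -0.08 against -0.04 over all probe sets, with 37 of 164 (22.6%) higher on both arrays and 70 (42.7%) lower on both; the shares over all probe sets were 32.6% and 39.4%.

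The mutant arrays differed from each other in these genes. Mutant array 2 read below mutant array 1 in 57 of the 81 genes (70.4%), by a median log2 difference of -0.12, while over all genes 44.5% read lower and the median difference was 0.04. Among the 1533 genes at or above the subunits' lower quartile of level the share was 58.2%. The count was 65 after median centring (55.5% of all genes), 53 after quantile normalization (48.7%) and 52 after cyclic loess (48.9%). By complex it was 24 of 35 in complex I, 3 of 4 in complex II, 8 of 8 in complex III, 12 of 17 in complex IV and 10 of 17 in complex V. Ndufa5 and Ndufs4 showed it most among genes near normal on mutant array 1: Ndufa5 had 3044 (normal), 3023 and 1964, and Ndufs4, an accessory subunit needed late in assembly, had 2194, 2192 and 1491. These were chosen after their values were seen, and with 1 pool per array the difference between the pools has no test.

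Other genes of the mitochondrial energy pathway were read from lists, whose counts stand against 36.0% of all genes higher and 37.4% lower on both arrays. Among the 1533 bright genes those shares were 30.8% and 46.6%, with a median log2 ratio of -0.06. At an unadjusted p under 0.05, 8.01% of the 12913 genes tested read higher and 4.24% lower. By the adjusted p, limma called 94 of these genes higher and 4 lower. The 43 measured assembly factors of the chain had a median log2 ratio of 0.02, with 17 higher on both arrays, 12 lower on both and 0 called by limma (1 of them at an unadjusted p under 0.05). Lrpprc, which stabilises mitochondrial mRNAs, gave 1871, 3073 and 2694, and Atpaf2, an ATP synthase assembly factor, gave 648, 481 and 410. The 13 electron carriers and subunits that the symbol rule does not match had a median of 0.03, with 6 higher, 4 lower and 0 called (2 unadjusted). Cytochrome c itself did not stand out: Cycs had 13624, 15511 and 12533, and cytochrome c1 (Cyc1) had 7817, 7891 and 7729. Etfa and Etfdh, which feed electrons from fatty acid oxidation to ubiquinone, read higher on both arrays, with 806, 1796 and 2038 for Etfa (log2 ratio 1.22, adjusted p = 0.112) and 328, 610 and 674 for Etfdh (log2 ratio 0.90, adjusted p = 0.240).

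The 16 tricarboxylic acid cycle genes had a median of 0.18, with 10 higher on both arrays, 2 lower on both and 0 called (4 unadjusted, all higher). Idh3a, a subunit of isocitrate dehydrogenase, gave 1934, 3632 and 3456 (log2 ratio 0.86, adjusted p = 0.157), and citrate synthase (Cs) gave 4564, 6593 and 6206 (log2 ratio 0.48, adjusted p = 0.299). The 18 mitochondrial carriers and porins had a median of 0.08, with 8 higher, 4 lower and 0 called (3 unadjusted). Slc25a4, which exchanges ADP for ATP, gave 9198, 12644 and 13001 (log2 ratio 0.48, adjusted p = 0.242). The glycolysis genes lay on the other side of 0: the 17 measured had a median of -0.15, with 3 higher, 10 lower and 0 called (1 unadjusted, Pfkp, which read higher).

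Lists of genes that maintain and express the mitochondrial genome had medians slightly below 0. The 14 genes of mitochondrial DNA maintenance and expression had a median of -0.18, with 4 higher, 8 lower and 0 called (1 unadjusted); Polg, the mitochondrial DNA polymerase, gave the highest ratio of the list with 2153, 3957 and 3863 (log2 ratio 0.85, adjusted p = 0.150). The 76 mitochondrial ribosomal proteins had a median of -0.10, split as 0.013 on mutant array 1 and -0.17 on mutant array 2, with 18 higher, 32 lower and 0 called (3 unadjusted, all lower). Mutant array 2 read below mutant array 1 in 57 of these 76 genes as well.

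The 13 regulators of mitochondrial biogenesis had a median of 0.25, with 9 higher on both arrays and 2 lower on both. The coactivator Ppargc1b read 34.4 in the normal pool, then 439 and 377 (log2 ratio 2.73, standard error 0.31, adjusted p = 0.0424), the 1 gene of these pathway lists under the threshold. Its normal signal is close to the pseudocount and below the filter, so it was tested only because the mutant arrays are high, and its p-value gives no support. The call was lost, as were all calls on the array, without the filter or without the variance trend. Gabpa, the DNA-binding subunit of GABP, gave 973, 1336 and 1440 (log2 ratio 0.50, adjusted p = 0.405). Named for the motifs above rather than for their values, Nrf1 gave 830, 751 and 729 and Yy1 gave 4278, 4462 and 4504. Among the 7 subunit genes with an NRF1 core the log2 ratios were -0.19 (Atp5k), -0.18 (Atp5g2), -0.03 (Uqcrc1), 0.04 (Cox6a1), 0.10 (Ndufa8), 0.12 (Uqcr11) and 0.61 (Atp5l).

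**Figure D5:**
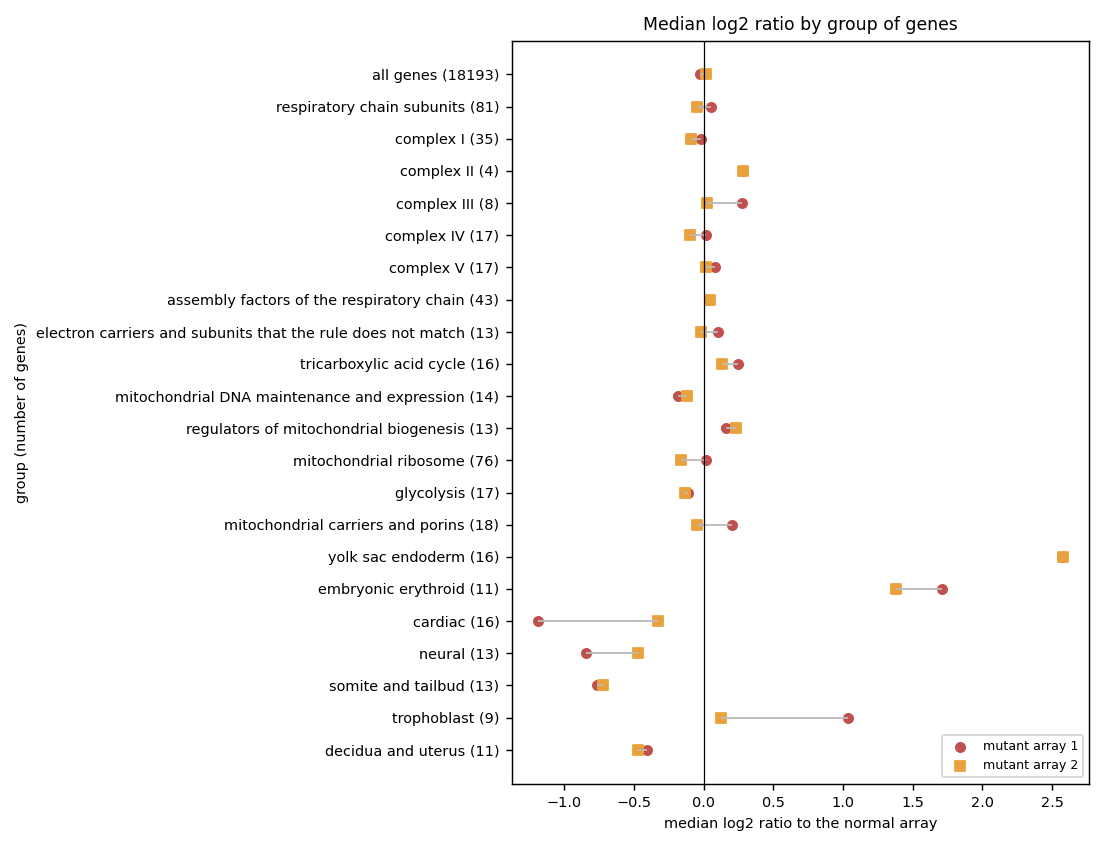
Median log2 ratio to the normal array (x axis) of each group of genes, with its number of genes in brackets (y axis), on mutant array 1 (circles) and mutant array 2 (squares). The subunits and their complexes lie within 0.28 of 0, while the marker lists of yolk sac endoderm and embryonic erythroid cells lie above 1 and those of cardiac, neural and somite cells lie below 0.

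Marker genes of cell types in the pools had larger ratios than the subunits, with medians of 2.62 for yolk sac endoderm and -0.78 for heart. Over all 12913 genes tested, limma called 94 higher and 4 lower. Of 16 yolk sac endoderm markers, 15 read higher on both mutant arrays and 13 were called higher by limma. Their summed signal was 22588 on the normal array and 115921 and 122795 on the mutant arrays. The 11 embryonic erythroid markers, with 2 called higher, had a median log2 ratio of 1.58, and 10 read higher on both mutant arrays. They summed to 34143, 69063 and 69945, mostly from the globins Hba-x, Hbb-y and Hbb-bh1. Of these, Hbb-bh1 alone gave 14623, 23262 and 21854. The globin Hba-a1 was mixed and dim (77.6, 85.0 and 10.3). The 9 trophoblast markers, with 1 called higher, summed to 2312, 5724 and 4914, and 5 of them read higher on both mutant arrays and 2 lower on both. Embryo proper markers mostly read lower, with 0 called. The 16 cardiac markers summed to 43511, 22991 and 33407, with 13 lower on both mutant arrays and 1 higher on both (Gata4). Actc1 alone gave 11002, 7144 and 10108 of those sums. The 13 neural markers summed to 13206, 7210 and 10657, with 10 lower on both and 0 higher on both. The 13 somite and tailbud markers summed to 8927, 5313 and 5610, with 11 lower on both and 0 higher on both. The 11 markers of decidua and uterus summed to 5337, 3654 and 5607, with 1 called lower (Prl8a2). Of these, 8 read lower on both mutant arrays and 2 higher on both, and the sums include Lum, which alone gave 444, 749 and 2530. No marker was listed at 0 on any array, but detection calls were not used, so this does not show that a marker was present. Below the array median on all 3 arrays lay 0 of the 16 cardiac, 0 of the 13 neural and 1 of the 13 somite and tailbud markers. That marker was Ripply2 (133, 34.6 and 25.5). Others were under the median on part of the arrays, such as Tbx5 (322, 125.5 and 75.3) and Hes7 (576, 224.5 and 54.8). The summed signal of the 81 subunit genes was 453501, 473965 and 433514, close to even across the arrays. The part of these cell type differences in the subunit values was not tested.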

How the data were processed

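The deposited file holds 1 linear intensity for each probe set on each array. GCOS and MAS5 are the tools given, per the submitters' processing notes. The values show that each array had been scaled to a 2% trimmed mean of 500. Of 45101 probe sets, 64 controls were left out; 34945 had 1 gene symbol, 932 several, and 9160 were not listed. RefSeq (GRCm38.p6) changed 0 of the 164 subunit symbols.

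A pseudocount of 31.9 was added, the middle of the arrays' 20th percentiles. Probe sets at or above the 40th percentile of the mean of group means were kept (27022, of which 148 are subunits). Limma 3.58.1 (R 4.3.3; lmFit, eBayes with trend) had 1 residual and 4.52 prior degrees of freedom; the script was tested on simulated data. All adjusted p-values come from this fit. Medians and counts use every measured gene, unfiltered, by its brightest probe set, with no test.

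The members, lists and tests were chosen with earlier results of these data known. Signals were given for the extremes and brightest gene of each complex, isoform families, substrate and redox subunits and genes with discordant probe sets; other named genes, the motifs (the NRF1 core after a longer form was searched) and the sizes 1.2-fold and 1.5-fold were chosen after values were seen. Alternatives changed the scaling, pseudocount, filter, variance trend, probe set rule and arrays used. Pools are separate samples by their labels, but the number of arrays limits precision.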

Additional observations from a re-analysis of the deposited data

How the results depend on the processing

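No subunit probe set was called by limma under any of the 8 alternatives to the fit, with the lowest adjusted p between 0.157 (cyclic loess) and 0.359 (no filter); over all probe sets, no filter or no variance trend left 0 calls either way. Median centring, which moved the median of all genes from -0.010 to 0.065, took the subunit median to 0.0904, complex I to -0.0017, complex II to 0.355 and complex V to 0.0904. Complex II was 0.264 after quantile normalization, 0.298 after cyclic loess, 0.278 with a double pseudocount and 0.0701 with the mean of a gene's probe sets. Leaving out each mutant array in turn gives a value with no test: the subunit median was -0.046 to 0.052, the genes higher than normal 34 to 46, the genes lower 35 to 47, complex I -0.093 to -0.017, complex II 0.279 to 0.282, complex III 0.026 to 0.276, complex IV -0.096 to 0.013 and complex V 0.019 to 0.080. Of 45 genes with signals given by the rule, 4 with ratios near 0 turned sign: Ndufs8 to 0.023, Uqcrc1 to 0.048, Cox5a to 0.014 and Atp5g1 to 0.00039 with median centring, Uqcrc1 to 0.0019 with cyclic loess and Cox5a to 0.0038 with quantile normalization. Restricting to the 77 genes above the array median on all arrays, chosen after seeing the data, gave a median of 0.0155. No paired analysis was possible because the normal group has 1 array. Dim members such as Cox6b2, Cox8b and Cox7b2 are limited by signal over background.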
